A study of Danio rerio with 19 samples.

Results

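The 7 arrays described here set the microRNA (miRNA) response to oncogenic Ras in melanocytes against the response to the same oncogene in the brain, in zebrafish larvae at 3 days post-fertilization (dpf). They were all the arrays labelled kita:HRAS (4 arrays) or zic:HRAS (3 arrays) at this age, out of 19 arrays in the series. Larvae of the kita:Ras group carried the driver Et(kita:Gal4TA, UAS:mCherry)hmz1, with Gal4 under the kita promoter, and the responder Tg(UAS:eGFP-HRASV12)io006, which codes for oncogenic HRAS fused to eGFP. Larvae of the zic:Ras group carried the driver Et(zic4:Gal4TA4, UAS:mCherry)hzm5 and the same responder, so that the oncogene was expressed in the telencephalon. Each array was hybridized with RNA from a pool of 15 whole Ras larvae (dye Hy3) and with RNA from AB wild type larvae of the same age (dye Hy5), and replicate pools came from different parents. In kita:Ras larvae the fused oncogene marks the notochord as well as the melanocytes, and AB larvae carry neither a driver nor mCherry, so that the effects of the driver line and of the oncogene cannot be told apart. The probes measure small RNAs only, so the level of the oncogene itself could not be checked. RNA was taken from whole larvae, in which fewer cells of a type and less RNA per cell cannot be told apart.

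A miRNA is a short RNA cut from one arm of a hairpin precursor, which pairs through its seed (bases 2 to 8 from the 5′ end) with messenger RNAs and lowers their output. Many miRNAs are abundant in one cell lineage, such as miR-124 in neurons, miR-206 in skeletal muscle or miR-122 in the liver, and their levels in a whole larva follow the mass of that tissue as well as its state. Ras is a small GTPase that passes growth signals to the ERK and PI3K pathways, and its V12 form stays switched on.

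The known miRNA probes that differed between the models are given first with 3 relatives (mir-148_r, miR-212_r and mir-125b-1_l), since probes that share a seed or a sequence are compared in the results. Each line gives the strand that the probe detects, read as the complement of the deposited probe sequence, with the seed in capitals. Names follow the array design, where _l is the left (5′) and _r the right (3′) arm, and probes of copies with identical sequence share a line.
mir-210_r: cUGUGCGUgugacagcggcuaa
mir-152_r: uCAGUGCAugacagaacuuugg
mir-148_r: uCAGUGCAuuacagaacuuugu
mir-132-1_r and mir-132-2_r: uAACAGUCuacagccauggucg
miR-212_r: uAACAGUCuacagucauggcua
mir-132-1_l: aCCGUGGCauuagauuguuacu
mir-132-2_l: aCCGUGGCuuuagauuguuacu
mir-125a-1_l and mir-125a-2_l: uCCCUGAGacccuuaaccugug
mir-125b-1_l: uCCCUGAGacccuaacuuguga
mir-100-2_r: cAAGCUCGugucuauagguaug
mir-27b_l: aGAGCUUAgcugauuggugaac
miR-138_r: gCUUCUUCacaacaccaggguc

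The measurement was the log2 ratio of Ras over control on each array, and the quantity tested was the kita:Ras mean minus the zic:Ras mean of that ratio. Of the 546 known probes, 377 were well above background in either channel on at least 3 of the 4 kita:Ras arrays and 2 of the 3 zic:Ras arrays, and these carried 267 distinct sequences. The arrays lay on 3 slides. Replicates 1 and 2 of kita:Ras were on slide 1, replicates 3 and 4 on slide 2, and the zic:Ras arrays shared slide 3 with those of hsp70:HRAS larvae (HS-Ras), in which a heat shock switches the oncogene on. HS-Ras larvae and their AB controls were both kept at 37 °C for 30 min at 3 dpf and sampled 6 h later, whereas the larvae of the kita:Ras and zic:Ras groups were not heat-shocked. In the Ras channel 88.1% and 87.7% of the known spots were well above background on slide 1, 60.1% and 49.1% on the kita:Ras arrays of slide 2, and between 79.6% and 82.1% on the zic:Ras arrays. Over the probes tested, which are not independent, the ratios of replicates 1 and 2 of kita:Ras correlated with r = 0.775, those of replicates 3 and 4 with r = 0.368, and those of the zic:Ras arrays with r between 0.605 and 0.773. No array had the dyes swapped, and the extended dynamic range of the scanner was on for kita:Ras and off for zic:Ras, so that slide, scan setting and model cannot be told apart between the groups. The kita:Ras arrays of slide 2 were read on another scanner (G2505B) than the arrays of slides 1 and 3 (G2505C). Slide and scanner therefore cannot be told apart between the 2 kita:Ras slides. Values by kita:Ras slide, or on the HS-Ras arrays of slide 3, are given beside most of the called probes.

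Between the models 11 of the 377 known probes (2.92%) were called, by a Benjamini-Hochberg adjusted p below 0.05 in limma and a fold between the ratios above 1.2. The ratio of 2 probes was higher in kita:Ras (0.531% of those tested), miR-210 (right arm) and miR-152, and that of 9 was lower (2.39%), among them all 4 probes of miR-132. The 11 probes carried 9 distinct sequences, and 6 of them were well measured, that is well above background in both channels on at least 3 kita:Ras and 2 zic:Ras arrays. Over all 377 probes the difference ranged from -1.45 to 0.88 with a median of -0.081, and the arrays of the 2 groups did not overlap for 108 probes (28.6%), 35 higher (9.28%) and 73 lower (19.4%) in kita:Ras. The split of the calls depended on the scaling. With normexp background correction and loess 12 probes were called (3.18%), 7 higher (1.86%) and 5 lower (1.33%), and 3 of them were among the 11. With each array centred on its median 15 were called (3.98%), 7 higher (1.86%) and 8 lower (2.12%), and 9 of them were among the 11. All 11 kept their sign under both. The count also rested on every array but 1. Without kita:Ras replicate 2, 3 or 4 the count was 2, 1 and 1, without any 1 zic:Ras array it was 1, and without kita:Ras replicate 1 it was 16. The right arm of miR-210 was called in each of these 7 fits.

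**Figure D1:**
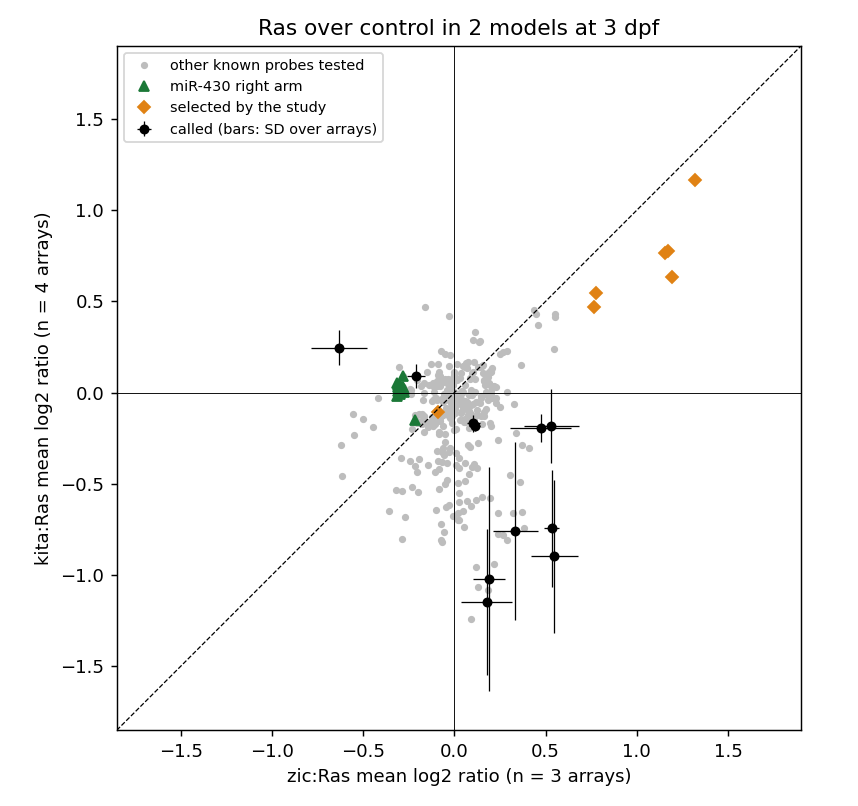
Mean log2 ratio of Ras over control in kita:Ras larvae (vertical axis, n = 4 arrays) against zic:Ras larvae (horizontal axis, n = 3 arrays), 1 point per known probe tested (377), with SD bars on the 11 called probes in black. miR-210 stands alone at upper left (0.25 against -0.63), the right arms of miR-430 (green) lie near 0 in kita:Ras and mostly near -0.30 in zic:Ras, and 6 of the 7 probes selected by the study (orange) lie above 0 in both models.

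miR-210 is induced by hypoxia-inducible factor when oxygen is low. Its right-arm probe had log2 ratios of 0.24, 0.31, 0.11 and 0.32 on the 4 kita:Ras arrays, against -0.75, -0.68 and -0.46 on the 3 zic:Ras arrays. All kita:Ras arrays lay above 0 and all zic:Ras arrays below it. The means were 0.25 ± 0.10 in kita:Ras (SD, n = 4) and -0.63 ± 0.15 in zic:Ras (SD, n = 3), a difference of 0.88 (SE 0.085, limma adjusted p = 5.18e-05) or 1.84-fold. This p takes its spread from all 16 larval arrays, 3 other groups among them. With the 7 arrays fitted alone the probe was still called, and the smallest limma adjusted p of any probe was 0.0121. Each model also differed from its control, with a higher ratio in kita:Ras (limma adjusted p = 0.0128) and a lower one in zic:Ras (limma adjusted p = 9.2e-05). Against control 9.28% of the 377 probes were called in kita:Ras, 3.71% higher and 5.57% lower, and 5.57% in zic:Ras, 3.45% higher and 2.12% lower. The difference was 0.91 with the kita:Ras arrays of slide 1 alone (limma adjusted p = 0.000583) and 0.85 with those of slide 2 alone (limma adjusted p = 0.000569). On the HS-Ras arrays of the slide of zic:Ras the probe stood at 0.72, 0.64 and 0.57. The left arm of the same hairpin had ratios between -0.21 and -0.13 in kita:Ras and between -0.64 and -0.39 in zic:Ras. The groups did not overlap there either, as was so with kita:Ras higher for 9.28% of all probes tested. The left-arm difference of 0.35 (SE 0.13) did not pass (limma adjusted p = 0.148). With normexp and loess it fell to 0.07, against 0.71 for the right arm.

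**Figure D2:**
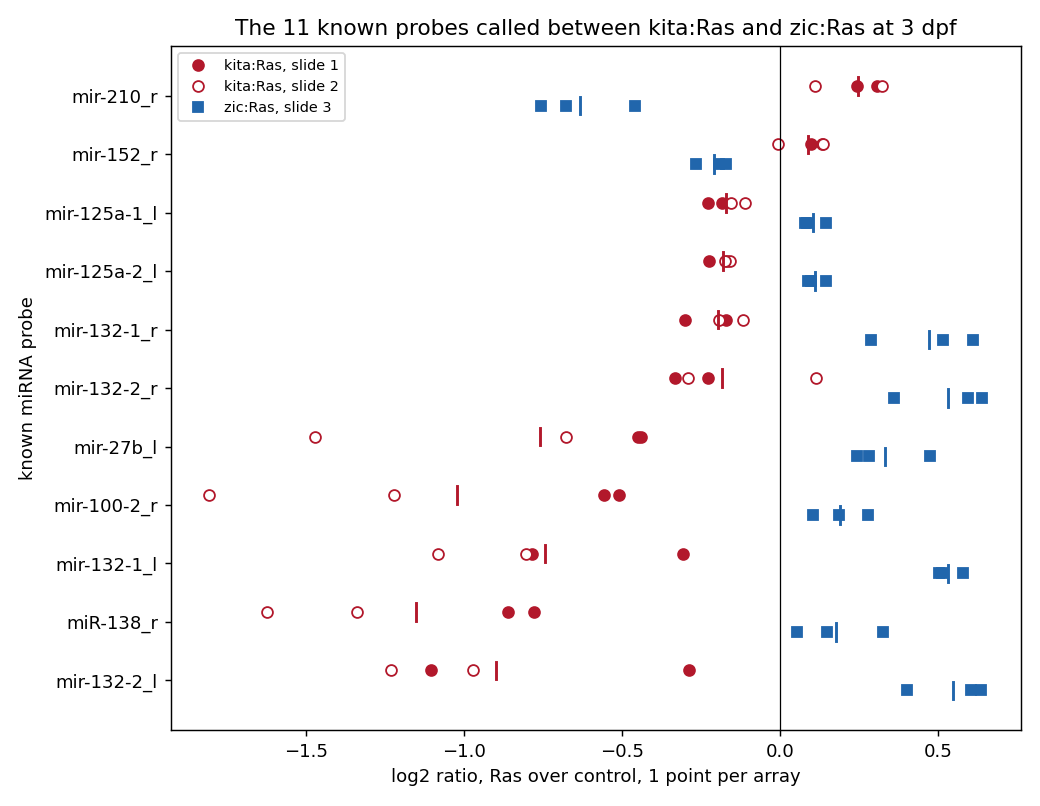
Log2 ratio of Ras over control on each array (horizontal axis) for the 11 called known probes, with kita:Ras in red above (filled circles slide 1, open circles slide 2) and zic:Ras in blue below (slide 3), and short ticks at the group means. The groups do not overlap for any of the 11 probes, which were chosen by their difference on these same arrays. Over all 377 probes tested the groups do not overlap for 108 (28.6%). The lowest value is that of kita:Ras replicate 4 for mir-100-2_r (-1.80).

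miR-132 is induced by neuronal activity through the transcription factor CREB, and it shares a hairpin cluster and a seed with miR-212. The probe mir-132-2_r had ratios of -0.23, -0.33, -0.29 and 0.11 in kita:Ras, against 0.36, 0.64 and 0.60 in zic:Ras. Its mean was -0.18 ± 0.20 in kita:Ras (SD, n = 4) and 0.53 ± 0.15 in zic:Ras (SD, n = 3), a difference of -0.72 (SE 0.16, limma adjusted p = 0.0354). Only the zic:Ras mean passed against its own control (limma adjusted p = 0.0208, against 0.234 in kita:Ras). The probe mir-132-1_r has the identical sequence and gave -0.17, -0.30, -0.19 and -0.12 in kita:Ras, against 0.29, 0.61 and 0.52 in zic:Ras. Its difference was -0.67 (SE 0.16, limma adjusted p = 0.0378), and the 2 copies disagreed most on kita:Ras replicate 4. The median difference of the 2 right-arm probes was -0.76 by slide 1 and -0.62 by slide 2, with 0 called by either slide alone. With normexp and loess that median was -0.435, and 1 of the 2 was called.

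The left arms of miR-132, the strands less often kept from this hairpin, had larger differences on weaker signal. The probe mir-132-2_l gave -0.29, -1.10, -0.97 and -1.23 in kita:Ras, against 0.61, 0.64 and 0.40 in zic:Ras, a difference of -1.45 (SE 0.31, limma adjusted p = 0.0354). The probe mir-132-1_l, with 1 mismatch to it, differed by -1.28 (SE 0.29, limma adjusted p = 0.0354). Their Ras signal cleared the background on the 2 kita:Ras arrays of slide 1 and on 0 of the 2 of slide 2, and with normexp and loess their differences shrank to -0.42 and -0.49 (limma adjusted p = 0.287 and 0.196). The 2 probes of miR-212_r, which have the seed of miR-132_r and 4 mismatches to it, differed in the same direction, by -0.71 (SE 0.20, limma adjusted p = 0.0763) and -0.85 (SE 0.34, limma adjusted p = 0.153), and did not pass. In all 6 probes of miR-132 and miR-212, which carry 4 distinct sequences, every kita:Ras array lay below every zic:Ras array, as for 19.4% of all probes. On the HS-Ras arrays of the slide of zic:Ras, the left arms were at 1.13, 0.41 and 0.77 (mir-132-2_l) and at 1.15, 0.42 and 0.75 (mir-132-1_l). All of these lay above every kita:Ras array, and replicates 1 and 3 lay above every zic:Ras array too. The right arm was at 0.55, -0.12 and 0.09 (mir-132-2_r) on the HS-Ras arrays, where replicate 1 lay within the zic:Ras range and the other 2 below it. Those 2 lay within the kita:Ras range of this probe, which reached 0.11 on kita:Ras replicate 4.

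miR-125a belongs to the miR-125 family, the vertebrate relatives of worm lin-4, which times development. The ratios of mir-125a-2_l were -0.22, -0.17, -0.16 and -0.17 in kita:Ras, against 0.09, 0.10 and 0.15 in zic:Ras. The arrays of each group lay close together and the groups apart, and the difference was -0.29 (SE 0.061, limma adjusted p = 0.0354), only just past the fold of 1.2 (1.22-fold). Its copy mir-125a-1_l differed by -0.27 (SE 0.060, limma adjusted p = 0.0354, 1.21-fold), a probe chosen after its values were seen. The 4 left-arm probes of miR-125b and miR-125c, with the same seed, differed by between -0.22 and -0.20, which is below the fold of 1.2 (limma adjusted p between 0.103 and 0.148). On the HS-Ras arrays mir-125a-2_l was at -0.11, 0.10 and 0.10, with replicates 2 and 3 at the level of zic:Ras and replicate 1 between the groups. With arrays centred on the median its difference was -0.23 and was no longer called (limma adjusted p = 0.2).

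miR-152 and miR-148 form one family, which in mammals targets DNA methyltransferase messages, and miR-148 targets there the pigment cell factor MITF. The ratios of mir-152_r were 0.10, 0.13, -0.01 and 0.14 in kita:Ras, against -0.17, -0.19 and -0.26 in zic:Ras. Its difference was 0.30 (SE 0.068, limma adjusted p = 0.0354), and it was 0.32 by slide 1 and 0.27 by slide 2. The relative mir-148_r, with the same seed and 2 mismatches, was at -0.09, 0.07, 0.06 and 0.02 in kita:Ras, against -0.26, -0.19 and -0.26 in zic:Ras, a difference of 0.25 (SE 0.079, limma adjusted p = 0.109). In both probes the zic:Ras mean lay below control (limma adjusted p = 0.023 and 0.024) and the kita:Ras mean did not pass (limma adjusted p = 0.175 and 0.885). On the HS-Ras arrays of the same slide as zic:Ras both were likewise below 0, at -0.30, -0.34 and -0.20 for mir-152_r.

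The other 3 called probes detect the minor arm of hairpins whose major arm did not pass. The probe miR-138_r, from a neuronal miRNA of dendritic spines, gave -0.86, -0.78, -1.62 and -1.34 in kita:Ras, against 0.33, 0.06 and 0.15 in zic:Ras, a difference of -1.33 (SE 0.33, limma adjusted p = 0.048). The probe mir-27b_l, from a cluster with miR-23b and miR-24 known from blood vessels, differed by -1.09 (SE 0.26, limma adjusted p = 0.0402). The probe mir-100-2_r, chosen after its values were seen, differed by -1.21 (SE 0.27, limma adjusted p = 0.0354). As for the left arms of miR-132, their Ras signal cleared the background on the 2 kita:Ras arrays of slide 1, on 0 of the 2 of slide 2 and on 3 of 3 zic:Ras arrays. On slide 1 alone their differences were -0.996, -0.78 and -0.72, and with normexp and loess on all arrays they were -0.32, -0.14 and -0.23 (limma adjusted p between 0.0983 and 0.439). On the HS-Ras arrays miR-138_r was at 0.49, -0.09 and 0.08, mir-27b_l at 0.28, -0.30 and 0.001, and mir-100-2_r at 0.08, -0.15 and -0.36. Every one of these values lay above every kita:Ras array, so for these probes both groups of slide 3 stood above kita:Ras. The major arms differed by -0.05 (median of the 2 left-arm probes of miR-138), -0.08 (mir-27b_r) and -0.04 (mir-100-2_l). Sister copies of mir-100-2_r and miR-138_r, each with 3 mismatches, were too dim to be tested. The copy mir-100-1_r had means of -0.06 in kita:Ras and -0.65 in zic:Ras, the opposite direction. The copy named mir-138_r had means of -0.70 and 0.45, the same direction.

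The comparison was repeated with each kita:Ras slide against the same zic:Ras arrays. With slide 1 alone 1 of the 377 probes was called (0.265%), the right arm of miR-210. With slide 2 alone 31 were called (8.22%), 6 higher (1.59%) and 25 lower (6.63%), and 7 of the 11 were among them. The 11 had the same sign on both slides, which is largely fixed by their choice over both slides and by the shared zic:Ras arrays. The slides also differed from each other: 14 probes were called between slide 2 and slide 1 of kita:Ras (3.71%), 6 higher (1.59%) and 8 lower (2.12%) on slide 2. They included mir-100-2_r (-0.98), the left arms of miR-21 (-0.71 for mir-21-1_l and -0.69 for mir-21-2_l) and 4 right-arm probes of miR-9, a regulator of neural progenitors (between 0.43 and 0.51). When slide was a random block in the fit 1 probe was called (0.265%), miR-210, and 41 had an unadjusted p below 0.05, against 84 (22.3%) without the block.

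**Figure D3:**
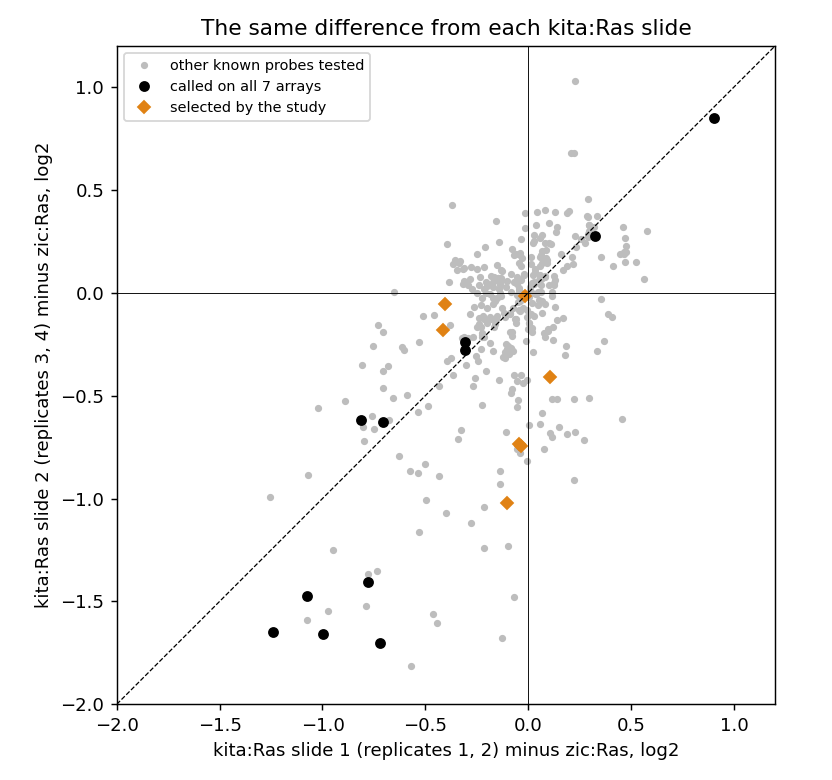
Difference from zic:Ras computed with the kita:Ras arrays of slide 2 (vertical axis) against that with slide 1 (horizontal axis), log2, 1 point per known probe tested (377), with the dashed line at equality. The 11 called probes are black (chosen on both slides together), and the orange left arms of miR-21 lie near 0 for slide 1 (-0.04) and lower for slide 2 (-0.75 and -0.73).

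Lineage lists give the wider picture, and a list of neuronal miRNAs held 5 of the 11 calls. These were the 4 probes of miR-132 and miR-138_r, out of 63 probes tested, all 5 lower in kita:Ras (7.94% of the list, against 2.92% of all probes). The count was 1 with normexp and loess, where 3.18% of all 377 probes were called, and 0 with slide 1 alone (0.265% of all). With slide 2 alone it was 9 lower and 1 higher, where 6.63% and 1.59% of all probes were called. Of those 9 lower, 5 were right-arm probes of miR-124, which share 1 sequence. For 3 of the list's 5 called probes the Ras signal did not clear the background on slide 2. The median difference over the list was -0.10, against -0.081 over all 377 probes. For 21 of its probes (33.3%) every kita:Ras array lay below every zic:Ras array, and for 0 above, against 19.4% and 9.28% over all probes. Over the 21 lists the share below ran from 0% to 42.1% (let-7). It was likewise 33.3% in the cartilage and connective tissue list (12 probes), and 25.7% among probes in no list. The 63 probes of the neuronal list carried 36 distinct sequences and the 377 tested carried 267, so that copies count more than once in these shares. The probes did not move as one. miR-124, the most abundant miRNA of neurons, had its 6 left-arm probes at array medians of -0.69, -0.78, -0.48 and -0.70 in kita:Ras, against 0.11, -0.13 and -0.10 in zic:Ras. For all 6 probes, of 4 distinct sequences, every kita:Ras array lay below every zic:Ras array, as for 19.4% of all probes. The HS-Ras medians of 0.20, -0.03 and 0.08 lay near those of zic:Ras. The 6 differences ran from -0.73 to -0.54 and none was called (limma adjusted p between 0.248 and 0.313), whereas all 6 were among the 26 calls (6.9%), 3 higher (0.796%) and 23 lower (6.1%), when the 7 arrays were fitted alone. The fit of 16 larval arrays takes its estimate of the spread from 3 other larval groups too (kita:Ras at 7 and 14 dpf, and HS-Ras). miR-124, like miR-430 and let-7, was broken down by arm after its values were seen. The 6 right-arm probes, the strand that neurons keep, share 1 sequence and had a median difference of -0.19. None was called in either fit, while 5 were called with slide 2 alone (median -0.29, against -0.10 by slide 1). The 5 left-arm probes of miR-9, which share 1 sequence, had a median difference of 0.07 and all lay above 0. The right arms of miR-9 had a median of -0.09, with 4 of 5 below 0, but it changed sign between the slides. It was -0.33 by slide 1 and 0.15 by slide 2. The 3 right arms of miR-153 had a median of 0.15, which was -0.02 by slide 1 and 0.31 by slide 2. The only left arm of miR-153 tested differed by -0.385, with every kita:Ras array below every zic:Ras array.

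**Figure D4:**
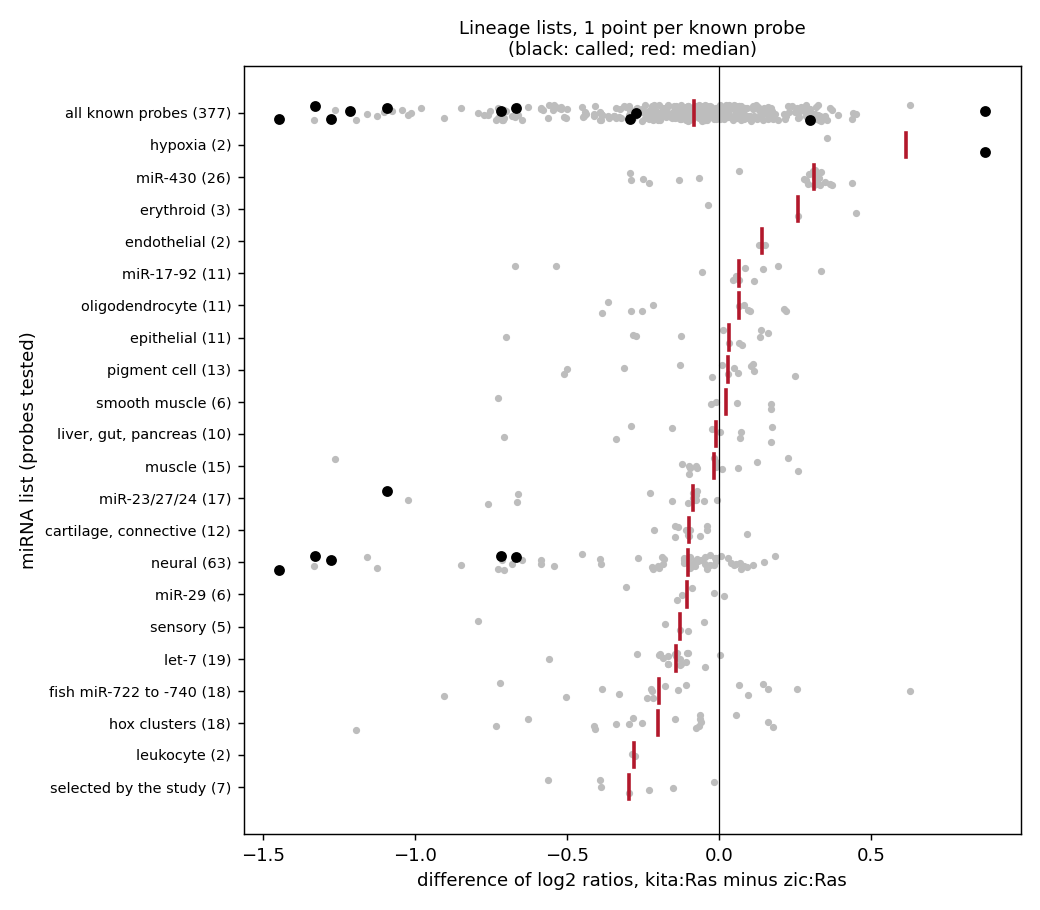
Difference of log2 ratios, kita:Ras minus zic:Ras (horizontal axis), for each known probe tested, by miRNA list (vertical axis, number of probes tested in brackets), with called probes in black and the median of each list in red. The neural, hypoxia and miR-23/27/24 lists hold 7 of the 11 calls (7.94%, 50% and 5.88% of their probes tested). The other 4 calls belong to no list (3.96% of such probes, against 2.92% of all). The medians of the miR-430 (0.31) and hypoxia (0.62) lists lie furthest to the right.

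miR-430 clears maternal messages in the early zebrafish embryo and is still measured at 3 dpf. Its 18 right-arm probes, the strands that carry this role, share the seed AAGUGCU and had array medians of 0.07, -0.01, -0.03 and 0.002 in kita:Ras, against -0.15, -0.36 and -0.38 in zic:Ras. The kita:Ras medians lay at control level and the zic:Ras medians below it, and those of HS-Ras on the same slide were -0.03, -0.07 and -0.07. For 17 of the 18 probes the arrays of the groups did not overlap, all higher in kita:Ras, against 9.28% over all probes. The 9 probes of miR-430b have 1 sequence and the 7 of miR-430a another, so these are 4 sequences and not 18 independent measurements. None passed (limma adjusted p between 0.122 for mir-430b-1_r and 0.908 for mir-430c-2_r). With normexp and loess 6 were called, where 12 of 377 probes (3.18%) were. With arrays centred on the median 3 were called, where 15 of 377 (3.98%) were. The median difference of the right arms was 0.32, and it was 0.31 by slide 1 and 0.28 by slide 2. The 8 left-arm probes had a median difference of -0.18, which was 0.09 with normexp and loess.

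**Figure D5:**
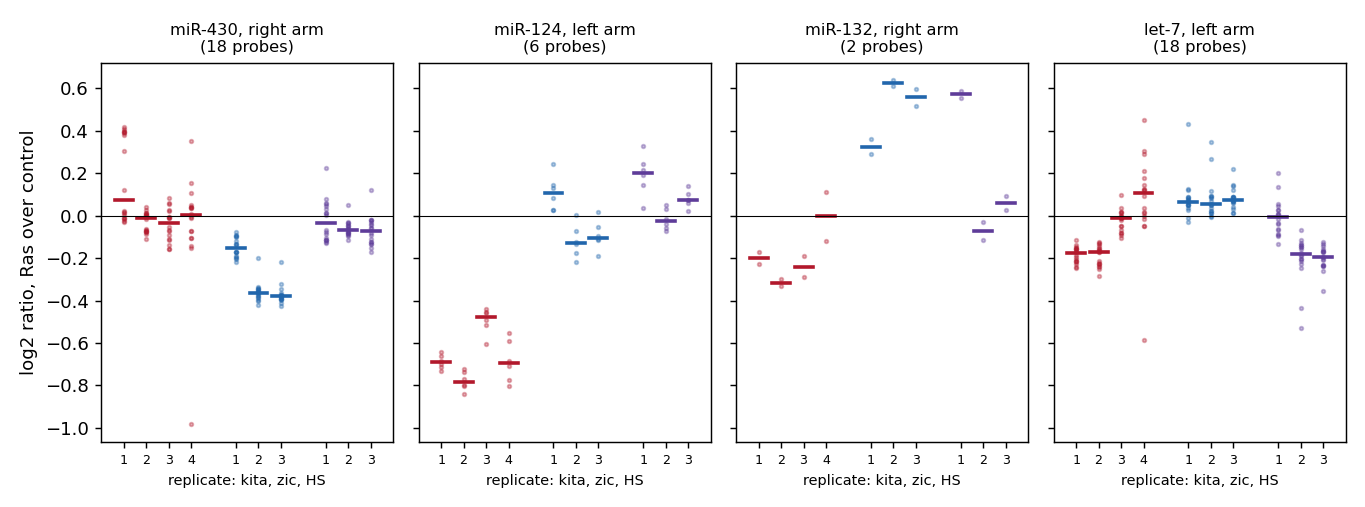
Log2 ratio of Ras over control (vertical axis) on each array for the probes of 4 family arms, with kita:Ras replicates 1 to 4 in red, zic:Ras 1 to 3 in blue and HS-Ras 1 to 3 in purple (points are probes, bars their median). miR-430 right arms are near 0 in kita:Ras and between -0.15 and -0.38 in zic:Ras, miR-124 left arms are between -0.78 and -0.48 in kita:Ras, and let-7 left arms are lower on kita:Ras replicates 1 and 2 than on 3 and 4.

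The let-7 family, which accumulates as tissues differentiate, had a median difference of -0.14 over 19 probes of 11 distinct sequences, and 0 were called. For 8 of them (42.1%) every kita:Ras array lay below every zic:Ras array, and for 0 above, against 19.4% and 9.28% over all probes. Its 18 left-arm probes had array medians of -0.18 and -0.17 on the kita:Ras arrays of slide 1 and of -0.01 and 0.11 on those of slide 2, against 0.07, 0.05 and 0.08 in zic:Ras. The median difference of these left arms was -0.24 by slide 1 and -0.04 by slide 2. The probe with the smallest p was let-7j_l, at -0.12, -0.29, 0.10 and -0.59 in kita:Ras and 0.43, 0.35 and 0.22 in zic:Ras (difference -0.56, SE 0.16, limma adjusted p = 0.0763). Its difference was alike by both slides, at -0.54 by slide 1 and -0.58 by slide 2.

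Lists of the other tissues held 1 further call, mir-27b_l, and 18 of the 21 lists held 0. For the pigment cell list, the lineage in which kita:Ras larvae express the oncogene, the median difference over 13 probes was 0.03, with 8 above 0 and 5 below. The arrays of the groups did not overlap for 2 probes higher (15.4%, against 9.28% of all probes) and 1 lower (7.69%, against 19.4%) in kita:Ras, and mir-148_r had the smallest p. For skeletal and heart muscle it was -0.01 over 15 probes, and the probe mir-206-1_l had a difference of -1.26 (SE 0.34, limma adjusted p = 0.0721). That probe is the minor arm of the skeletal muscle miRNA miR-206 and, like the dim probes above, had a Ras signal above background on 2 of 4 kita:Ras arrays. The 3 probes of miR-144 and miR-451, which promote red cell maturation, had a median of 0.26. The left arm mir-144_l stood at 0.33, 0.06, 0.82 and 0.48 in kita:Ras and 0.02, -0.02 and -0.09 in zic:Ras (difference 0.45, SE 0.16, limma adjusted p = 0.139). The right arm mir-144_r differed by only -0.04, at 0.59, 0.27, -0.01 and -0.01 in kita:Ras and 0.64, 0.52 and -0.42 in zic:Ras. The liver miRNA miR-122 differed by -0.34 (SE 0.093, limma adjusted p = 0.0763). The liver, gut and pancreas list had a median of -0.01 over 10 probes, and like that of muscle it turned positive with arrays centred on the median (0.05 in both). The 11 epithelial probes had a median of 0.03, the 12 of cartilage and connective tissue -0.10, the 18 linked to hox clusters -0.20 and the 18 of miRNAs first listed in fish -0.20. For the last 2 lists most of that came from slide 2, with medians of -0.04 in both by slide 1 and of -0.25 and -0.37 by slide 2. The remaining medians lay between -0.28 (2 leukocyte probes) and 0.14 (2 endothelial probes), with 0.07 for oligodendrocytes (11 probes), 0.07 for the miR-17-92 family of proliferating cells (11 probes), 0.02 for smooth muscle (6 probes), -0.09 for miR-23/27/24 (17 probes), -0.10 for miR-29 (6 probes) and -0.13 for sensory cells (5 probes). The leukocyte median was -0.07 by slide 1 and -0.50 by slide 2, the endothelial one 0.03 and 0.26, and the sensory one -0.22 and 0.02. In the lists without a call the probes of smallest p were at a limma adjusted p of 0.0721 or more. They included mir-338-1_r of oligodendrocytes (-0.29, limma adjusted p = 0.109), mir-150_r of leukocytes (-0.27, limma adjusted p = 0.292) and miR-126*_r of endothelium (0.15, limma adjusted p = 0.254). Among them were also the right arms mir-96_r of hair cells (-0.79, limma adjusted p = 0.218) and mir-196a-2_r of the hox clusters (-1.19, limma adjusted p = 0.148). The left arm mir-96_l differed by only -0.05, and the left arms of miR-196 had a median of 0.05. The Ras signal of mir-196a-2_r cleared the background on 0 of the 2 kita:Ras arrays of slide 2.

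The 4 miRNAs that the study followed, miR-193a, miR-21 and both forms of miR-146, were chosen because they rose in its Ras models, so their ratios above 0 are no independent evidence. A difference between the models was not detected for any of the 7 probes tested of 12 (limma adjusted p between 0.219 and 0.98), although all 7 differences were below 0, with a median of -0.30. That median was -0.11 with normexp and loess (6 of 7 below 0), -0.04 by slide 1 and -0.41 by slide 2. The main strand of miR-21, an oncogenic miRNA of many tumors, was measured by mir-21-2_l at 1.18, 1.04, 0.65 and 0.19 in kita:Ras, against 1.28, 1.12 and 1.06 in zic:Ras. Replicate 1 of kita:Ras lay within the zic:Ras range, replicate 2 just under it and the 2 arrays of slide 2 further below. Its difference was -0.39 (SE 0.18, limma adjusted p = 0.219), or -0.04 by slide 1 and -0.73 by slide 2, where it was called (limma adjusted p = 0.00537). The probe mir-146a_l, of a feedback inhibitor of NF-kB signaling, was at 1.27, 1.58, 1.29 and 0.53 in kita:Ras and 1.56, 1.38 and 1.01 in zic:Ras. Its difference of -0.15 (SE 0.26) was 0.11 by slide 1 and -0.41 by slide 2. The probe mir-193a-1_r was at 0.38, 0.32, 0.45 and 0.72 in kita:Ras, against 0.95, 0.83 and 0.52 in zic:Ras (difference -0.30, SE 0.14, limma adjusted p = 0.226), and this one was the larger by slide 1 (-0.41) than by slide 2 (-0.18). The largest of the 7 differences was that of mir-146b-1_l (-0.56). It lay at -0.65 on kita:Ras replicate 4, with the nearest kita:Ras array at 0.87. Its Ras signal cleared the background on 1 of the 2 kita:Ras arrays of slide 2. The other arm, mir-146b-1_r, had means below 0 in both models (-0.11 in kita:Ras and -0.09 in zic:Ras). The 5 probes not tested were minor arms too dim for the filter.

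The 2 channels behind these ratios were scaled to their 75th percentile over the 273 known probes well above background in both channels on all 7 arrays. Over 334 well measured probes the control channel of kita:Ras minus that of zic:Ras had an SD of 0.96, although both controls were AB larvae at 3 dpf. The Ras channels differed with an SD of 0.91, the correlation of both differences across probes was 0.964, and the difference of the ratios had an SD of 0.26. Levels therefore differed more between the slides than the ratios did, and only ratios within an array were compared.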

How the data were processed

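Two-colour custom Agilent miRNA arrays (60-base probes with 2 antisense copies of the target) were hybridized with Ras RNA (Hy3, green) and AB control RNA (Hy5, red). The authors scanned them and ran Agilent Feature Extraction (9.5.3.1 in the submitters' notes, a later version in the file headers), which subtracted background and normalized the dyes within each array to give the deposited processed intensity of each channel and the log10 ratio of red over green. The deposited value table held the same log10 ratios. Here the sign was turned and the ratio put on the log2 scale, so that positive values mean more in Ras larvae, and spots of a probe were averaged. Known probes are those named as zebrafish miRNAs in the array design; 546 were present and 377 were bright enough to be tested.

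Group means of 5 larval groups (16 arrays) were those of kita:Ras and zic:Ras at 3 dpf, HS-Ras at 3 dpf, and kita:Ras at 7 dpf (15 larvae a pool) and 14 dpf (5 larvae a pool). They were fitted with limma 3.58.1 in R 4.3.3, and the contrast kita:Ras minus zic:Ras was tested two-sided with Benjamini-Hochberg adjustment over the 377 probes. A call needed an adjusted p below 0.05 and a fold above 1.2. The test script was tested on simulated data. The number of arrays limits the precision. Replicates are pools from different parents. Named probes were the called, well measured and non-overlapping ones (at most 10 in each direction, identical sequences once), those of the miRNAs the study selected, and in each lineage list the called probes or else the one with the smallest p. The members, lists and tests were chosen with earlier results of these data known. Replicate numbers do not pair the arrays. Alternatives covered background, scaling, filters, thresholds, weights, slides, blocks and single arrays. Control spots, adult arrays and genome positions were not used here. Array-design names were kept.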

Additional observations from a re-analysis of the deposited data

Results flagged for a closer look

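The kita:Ras and zic:Ras ratios differed for 11 of 377 known probes (2.92%) by the limma contrast of the models. Only mir-210_r was also called with slide 1 alone and with slide as a random block. The differences were 0.88 for mir-210_r and 0.30 for mir-152_r. They were -0.29 for mir-125a-2_l, -0.27 for mir-125a-1_l, -0.72 for mir-132-2_r and -0.67 for mir-132-1_r. The 5 probes whose Ras signal cleared the background on only 2 of 4 kita:Ras arrays had -1.45 (mir-132-2_l), -1.28 (mir-132-1_l), -1.21 (mir-100-2_r), -1.09 (mir-27b_l) and -1.33 (miR-138_r).

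One kita:Ras array lay far from the other 3 for 3 of the 35 named probes examined, by Dixon's ratio, which chance alone meets in about 1 of 20 groups. These were mir-145_l on replicate 4 (0.30, the nearest other array at 0.04), mir-205_l on replicate 1 (0.16, the nearest at 0.03) and mir-29a-2_r on replicate 4 (-0.65, the nearest at 0.47).

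Outside the known miRNAs the arrays carry probes for predicted ones, and 491 of these were bright enough to be tested. At an adjusted p below 0.05 in limma 1 was called, and 44 (8.96%) had an unadjusted p below 0.05. The called probe, sblock50535_C3_l, had ratios of -0.11, -0.04, 0.76 and -0.72 in kita:Ras, against -2.30, -1.95 and -1.57 in zic:Ras. The difference was 1.91 (SE 0.30, limma adjusted p = 0.00804).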

How the results depend on the processing

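Of the 11 called probes mir-210_r was called in 26 of 27 alternatives with a value (difference between 0.71 and 0.96, highest limma adjusted p 0.0573), and the other 10 in between 10 and 13. Some alternatives could not remove a call: the deposited value table held the same ratios, and no minimum fold and an unadjusted p below 0.01 only loosened the rule. With 1 array left out, mir-210_r was called in 7 of 7 fits and the other 10 in between 0 and 2. All 11 kept their sign wherever they had a value, by these overlapping sets of arrays. The count was 1 with no filter on dim probes, with an adjusted p below 0.01, with adjustment over known and predicted probes, with slide as a random block and with slide 1 alone. It was 5 with both channels above background on all 7 arrays, 22 at an unadjusted p below 0.01, 26 with the 7 arrays alone, 30 with the 10 arrays at 3 dpf and 85 with array weights, whose estimation did not fully converge. The 7 arrays alone with slide as a random block gave 0 calls in limma and 55 at an unadjusted p below 0.05, a setting chosen after seeing the data. With the replicate number as a block there were 23 calls, 7 of them among the 11, but deviations of same-numbered arrays correlated at 0.131, -0.145 and -0.0239 across probes, so the numbers do not pair the arrays. Leaving out each array gave between 1 and 16.

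Between the slides of kita:Ras the 14 calls became 6 with normexp and loess and between 0 and 70 with 1 array left out (0 without replicate 1, 1 without replicate 2, 70 without replicate 3). The reversed values belonged to 2 probes that were not called. The difference of mir-146a_l was 0.15 with array weights, 0.061 with the replicate block and 0.11 with slide 1, and between -0.30 and 0.061 with 1 array left out. That of mir-146b-1_r was 0.029 with normexp and loess, 0.044 with centred arrays and 0.065 with the replicate block, and between -0.10 and 0.065 with 1 array left out. The cause was not tested. Of 792 values over 35 named probes 123 lost and 24 gained a call. The ratios have no dye swap, and dim probes limit what slide 2 can show.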
